A study of Mus musculus with 27 samples.

Results

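The change that lipopolysaccharide (LPS) makes to the enrichment of each transcript by an anti-HuR antibody was measured in 16 of the 27 libraries of the series. The libraries were chosen by assay and treatment: 4 of total RNA and 4 of anti-HuR ribonucleoprotein immunoprecipitation (RIP) from cells in DMSO, the vehicle, and the same 4 and 4 from cells in LPS at 1 µg/ml, whose label also gives DMSO. All groups are RAW264.7, 1 mouse macrophage line, harvested after 6 h. Another 8 libraries of RNA and RIP, from cells given LPS with TM7nox, entered the filter on low counts, the scaling and the estimate of the spread, and no comparison. For RIP the RNA came from antibody beads, and for total RNA from cell pellets. The labels give replicate numbers 1 to 4 in each group but do not say that these were separate cultures, so p-values measure the spread between these samples, which may be technical. Control IgG was run once in DMSO and once in LPS, both under number 3.

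HuR, encoded by Elavl1, is an RNA-binding protein that recognises U-rich and AU-rich stretches, mostly in 3′ untranslated regions (3′ UTRs) and introns, and is best known for stabilising short-lived mRNAs. In macrophages, LPS acts through Toll-like receptor 4 and induces many cytokine mRNAs that carry AU-rich elements. Those elements are also bound by decay factors such as tristetraprolin, the product of Zfp36. The quantity reported here is a difference of differences on the log2 scale: RIP minus RNA in LPS, less RIP minus RNA in DMSO. A value above 0 means that RIP rose more, or fell less, than RNA did. RIP minus RNA is relative to the typical gene, because the scaling sets most genes level between libraries, and it carries no absolute amount of bound RNA. With bulk samples, fewer cells of a type and less RNA per cell cannot be told apart.

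Total counts ran from 2728534 to 27543656 in RNA from DMSO, where the library numbered 1 was the shallowest of the 16. They ran from 17361022 to 28285856 in RNA from LPS, from 20704663 to 35143212 in RIP from DMSO and from 26151490 to 34866019 in RIP from LPS. Levels are given in CPM, counts scaled to a common library size. The lowest of 10 macrophage markers had a group mean of 15 CPM in RNA. All 24 markers of other cell types stayed under a group mean of 1 CPM there, and 8 of them had 0 counts. The summed level of those 24 lay between 0.438 and 2.54 CPM in RNA from DMSO, 0.709 and 3.04 in RNA from LPS, 0.88 and 1.89 in RIP from DMSO and 3.57 and 5.59 in RIP from LPS. Their part in the results was not tested. Actb, which encodes beta-actin, took 5.78 to 12.8% of RIP counts in DMSO and 12.3 to 18.3% in LPS, against 0.53 to 1.29% of RNA counts.

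Most of the response to LPS was common to both assays, and 6 of 14311 genes tested (0.0419%) were called for a change of RIP over RNA. Pola2, a subunit of DNA polymerase alpha, and Slfn2, an interferon-inducible Schlafen gene, rose in RIP over RNA by 5.85-fold and 3.93-fold. Tnf, the cytokine tumour necrosis factor, Eno2, the neuronal form of enolase, Asb1, an ankyrin repeat and SOCS box protein, and Seh1l, a nucleoporin, fell by 15.4-fold, 14.7-fold, 7.15-fold and 2.8-fold. A call is an adjusted p, or FDR, under 0.05 in edgeR's quasi-likelihood test with Benjamini-Hochberg adjustment over all genes tested. At an unadjusted p under 0.05 there were 1041 genes (7.27%), of which 529 were higher in LPS (3.70%) and 512 lower (3.58%).

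The 4 genes that fell include 3 whose 3′ UTRs carry dense AU-rich stretches. The 30-base window with the most matches to the pentamer ATTTA, the core of the AU-rich element, is shown for these 3, and for 3 transcripts of the measured panel that were not called. Windows are from the GENCODE transcript with the longest coding sequence, read 5′ to 3′ on the sense strand of GRCm39. Capitals mark each ATTTA match, and overlapping matches count separately.

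Tnf: ttATTTAttATTTATTTAttATTTATTTAt

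Eno2: tATTTATTTATTTATTTATTTATTTATTTA

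Asb1: tttatatatttttgtATTTATTTATTTAtt

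Elavl1: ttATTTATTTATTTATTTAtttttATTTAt

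Ptgs2: tATTTATTTATTTAtgtgaagaATTTAatt

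Zfp36: tttATTTAtgacgactttATTTAttgtatt

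The Tnf window lies at chr17:35418654-35418683 on the minus strand, the Eno2 window at chr6:124737722-124737751 (minus) and the Asb1 window at chr1:91484805-91484834 (plus). The windows of Elavl1, Ptgs2 and Zfp36 lie at chr8:4335777-4335806 (minus), chr1:149981548-149981577 (plus) and chr7:28076381-28076410 (minus). All 6 are in 3′ UTR exons. A window with at least the 5 pentamers of Tnf was found in 0.285% of 10896 coding genes, one with the 7 of Eno2 in 0.0642% and one with the 3 of Asb1 in 2.84%. The window of Elavl1 also holds 5 pentamers, that of Ptgs2 holds 4, a number reached by 0.587% of genes, and that of Zfp36 holds 2, reached by 21.6%. Dense pentamers were thus present both in transcripts that were called lower and in transcripts that were not. The longer motif TTATTTATT, which contains the pentamer, occurs 5 times in the 3′ UTR of Tnf, 10 times in that of Eno2, 2 times in that of Asb1, 8 times in that of Elavl1 and 1 time in those of Ptgs2 and Zfp36. It occurs in 9.21% of the coding genes. No ATTTA was found in the 3′ UTRs of Pola2 (320 bases) or Slfn2 (345 bases), whereas 73.3% of coding genes have at least 1. In the longest annotated 3′ UTR of Pola2 (2698 bases) there are 3.

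Pola2 (ENSMUSG00000024833, chr19:5990570-6014261, minus strand) stood in RNA at 56.4, 33.6, 43.6 and 41 CPM in DMSO and at 42, 34.9, 36.5 and 34.3 CPM in LPS, in the order of the replicate numbers. In RIP it stood at 14.1, 14.2, 15.2 and 11.7 CPM in DMSO and at 54.8, 86.1, 87.6 and 71.2 CPM in LPS. The RNA groups overlapped, while every RIP library from LPS was above every one from DMSO. RIP minus RNA went from -1.64 ± 0.33 to 1.00 ± 0.42 (SD, n = 4 each), so that Pola2 was depleted in RIP in DMSO and enriched in LPS. The log2 change was 2.55 (SE 0.24, FDR 1.15e-06), and 2.38, 2.54, 2.77 and 2.86 by replicate number. IgG gave 48.3 CPM in DMSO and 42 CPM in LPS, close to the RNA levels.

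Slfn2 (ENSMUSG00000072620, chr11:82955609-82961504, plus strand) rose in both assays. In RNA it stood at 143, 136, 99.2 and 82.9 CPM in DMSO and at 860, 974, 1002 and 968 CPM in LPS. The RIP libraries gave 119, 68.4, 43.9 and 40.3 CPM in DMSO and at 2143, 2323, 2703 and 2511 CPM in LPS. No group overlapped its counterpart, and the step was larger in RIP, at a log2 fold change of 5.11 (SE 0.29) against 3.14 (SE 0.27) in RNA. RIP minus RNA went from -0.87 ± 0.41 to 1.34 ± 0.08 (SD, n = 4 each), a log2 change of 1.97 (SE 0.35, FDR 0.0224). The library pair numbered 1 gave the smallest change, 1.58, and the others gave 2.25, 2.60 and 2.41. The call was lost when any of 7 of the 16 libraries was left out: RNA from LPS numbered 1, 2, 3 or 4, RNA from DMSO numbered 2, and RIP from DMSO numbered 2 or 4, with FDR 0.0527 to 0.062. It was also lost with the 16 compared libraries alone (FDR 0.0596). Slfn2 overlaps Slfn10 and Gm20234 on the other strand, and whether counting used the strand is not given in the sources used here. IgG stood at 79.7 CPM in DMSO and 933 CPM in LPS.

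Tnf (ENSMUSG00000024401, chr17:35418357-35420983, minus strand) rose in RNA and was not called in RIP. In RNA it stood at 54.1, 76.7, 43.2 and 36.5 CPM in DMSO and at 576, 754, 668 and 708 CPM in LPS. In RIP it stood at 538, 756, 541 and 476 CPM in DMSO and at 648, 482, 455 and 511 CPM in LPS. The RNA groups lay far apart and the RIP groups overlapped. The log2 fold change was 3.77 (SE 0.34, FDR 1.86e-09) in RNA and -0.18 (SE 0.30, FDR 0.664) in RIP. RIP minus RNA went from 3.49 ± 0.21 to -0.38 ± 0.37 (SD, n = 4 each), and the log2 change was -3.95 (SE 0.45, FDR 2.45e-05), at -3.14, -3.95, -4.20 and -4.18 by replicate number. In LPS, RIP did not differ from RNA by edgeR's test (-0.36, SE 0.30, FDR 0.303). The IgG library from LPS held 1147 CPM, above all 4 anti-HuR libraries from LPS, and the IgG library from DMSO held 48.2 CPM, below all 4 from DMSO. In LPS, IgG also stood above every anti-HuR library for the panel genes Il1b (1966 CPM), Nos2 (966 CPM), Ptgs2 (3861 CPM) and Cxcl10 (474 CPM). It did not for Elavl1, Il6, Il10, Ifnb1 and Zfp36.

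Eno2 (ENSMUSG00000004267, chr6:124736247-124746636, minus strand) fell in RIP and was not called in RNA. In RNA it stood at 0.424, 1.73, 1.22 and 1.61 CPM in DMSO and at 0.984, 1.06, 1.37 and 0.842 CPM in LPS. Its RIP levels were 10.8, 18.1, 12.1 and 19 CPM in DMSO and at 0.648, 0.736, 0.83 and 1.16 CPM in LPS. The RNA groups overlapped, and the lowest RIP library from DMSO was above the highest from LPS. RIP minus RNA went from 3.62 ± 0.55 to -0.32 ± 0.50 (SD, n = 4 each), a log2 change of -3.88 (SE 0.59, FDR 0.0032). The levels are low: the 4 RIP libraries from LPS held 64 counts in all and those from DMSO 1644, while the RNA libraries held 123 and 156. IgG stood at 2.81 and 2.01 CPM. Gm66857 overlaps Eno2 on the other strand.

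Asb1 (ENSMUSG00000026311, chr1:91468266-91487311, plus strand) moved in opposite directions in the 2 assays. In RNA it stood at 0.848, 6.85, 5.47 and 4.01 CPM in DMSO and at 6.72, 10.3, 9.24 and 9.27 CPM in LPS, groups that overlapped at the edge. In RIP it stood at 50.1, 61.2, 62.6 and 71 CPM in DMSO and at 18.9, 15.8, 15.7 and 18.3 CPM in LPS, with no overlap. The log2 fold change was 0.97 (SE 0.35, FDR 0.0299) in RNA and -1.87 (SE 0.34, FDR 7.22e-05) in RIP. RIP minus RNA went from 4.13 ± 1.16 to 0.96 ± 0.38 (SD, n = 4 each), a log2 change of -2.84 (SE 0.48, FDR 0.0132). The change was -4.27 in number 1, where the RNA library from DMSO gave the low value of 0.848 CPM, and -2.53, -2.73 and -3.14 in the others. Without RNA from DMSO numbered 4 the change was -2.76 (FDR 0.0517). IgG stood at 5.46 CPM in DMSO and 15.3 CPM in LPS, the latter near the anti-HuR level.

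Seh1l (ENSMUSG00000079614, chr18:67907848-67928557, plus strand) stood in RNA at 34.6, 40.2, 32.5 and 37.3 CPM in DMSO and at 44.5, 36.3, 33.8 and 39.2 CPM in LPS. RIP gave 293, 315, 253 and 261 CPM in DMSO and at 129, 156, 82.2 and 88.1 CPM in LPS. The RNA groups overlapped and the RIP groups did not. RIP minus RNA went from 2.95 ± 0.11 to 1.52 ± 0.42 (SD, n = 4 each), so that Seh1l stayed enriched in LPS at a lower level. The log2 change was -1.49 (SE 0.28, FDR 0.0472). It was called in 1 of 16 fits that left out 1 library, the one without RIP from LPS numbered 2, and in the other 15 the FDR lay between 0.0617 and 0.191. The call was also lost with RLE factors (FDR 0.0732), with upper quartile factors (0.0521) and with the 16 compared libraries alone (0.0825). IgG stood at 33.3 and 33.6 CPM, and 4930549G23Rik overlaps Seh1l on the other strand.

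**Figure D1:**
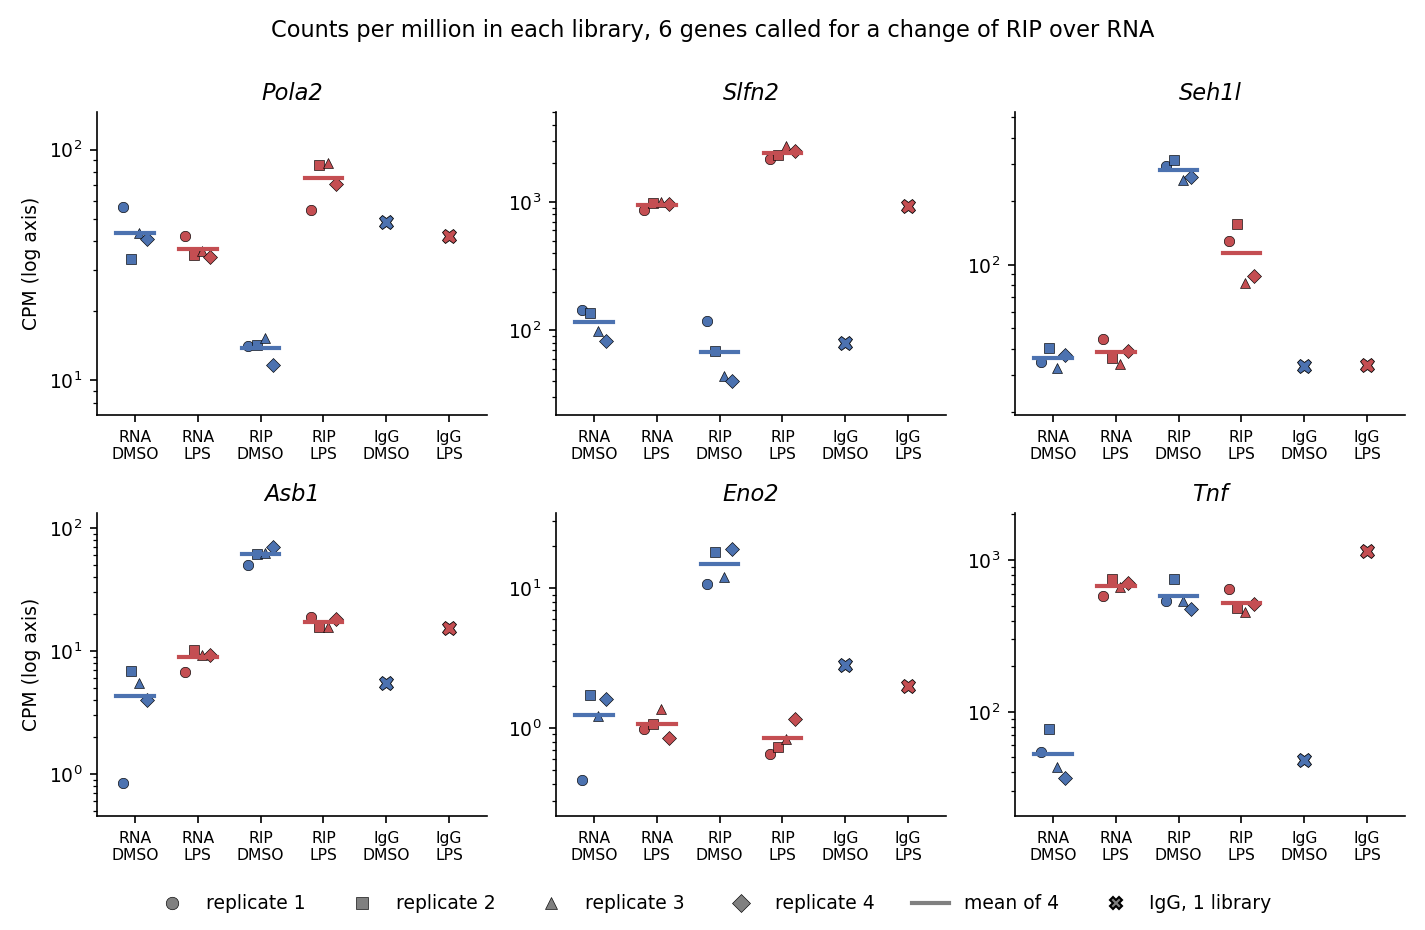
Level of the 6 called genes in every library, in CPM on a log axis, with DMSO in blue and LPS in red. Symbols are single libraries, bars are means of 4 and crosses are the single IgG libraries. Tnf in RIP overlaps between treatments while its RNA does not, and Eno2, Asb1 and Seh1l are lower in RIP from LPS.

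Single libraries also set how many genes pass. With each of the 16 libraries left out in turn, 4 to 11 genes were called. Pola2, Tnf and Eno2 were called in all 16 of these fits, Asb1 in 15, Slfn2 in 9 and Seh1l in 1. The highest count came without RNA from DMSO numbered 1, the shallowest library, when 11 genes were called, 8 higher and 3 lower. With that library left out, 834 genes were higher (5.66%) and 455 lower (3.09%) at an unadjusted p under 0.05. Replicates 1 and 2 alone gave 0 calls by edgeR, with 299 genes at an unadjusted p under 0.05, and replicates 3 and 4 alone gave 13 calls that included 5 of the 6 genes, all but Eno2.

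In a panel of 10 LPS-responsive and HuR-related genes, Tnf was called and edgeR called 0 of the other 9. At an unadjusted p under 0.05 these 9 gave 2, Il1b and Nos2, both lower, and DESeq2 called 0 (0.461% of all genes). Elavl1, the transcript of HuR itself, was the most enriched panel member in both treatments. It stood in RNA at 102, 110, 74.8 and 74.1 CPM in DMSO and at 117, 127, 93.7 and 97.6 CPM in LPS. In RIP it stood at 3245, 2990, 2263 and 2083 CPM in DMSO and at 3830, 4700, 3349 and 2679 CPM in LPS. The groups overlapped in both assays, and the log2 change was 0.07 (SE 0.29, FDR 0.984), with a 95% interval from -0.54 to 0.68. IgG held 60.7 and 90.8 CPM of it.

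Il1b, which encodes interleukin 1 beta, rose in RNA from 0.706 CPM to 1136 CPM and in RIP from 1.3 CPM to 571 CPM (means of 4). Its log2 change was -1.80 (SE 0.68, FDR 0.573), with single values of -1.57, -2.11, -0.02 and -5.42, and the DMSO libraries held only 80 counts in RNA and 134 in RIP. It was called with no filter on low counts (-1.66, FDR 0.0023) and in no other alternative. Nos2, the inducible nitric oxide synthase, gave -1.02 (SE 0.47, FDR 0.655), from RNA means of 0.917 and 533 CPM and RIP means of 0.874 and 213 CPM. For both genes the 4 differences in LPS were alike, at -0.92, -1.31, -0.73 and -0.91 for Il1b and -1.49, -1.84, -1.11 and -1.0 for Nos2. The 4 differences in DMSO were wider apart, from -0.70 to 4.51 and from -1.15 to 3.10, in libraries that held at most 2.51 CPM of Il1b and 1.58 CPM of Nos2.

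Ptgs2, or cyclooxygenase 2, rose from 17.1 to 2559 CPM in RNA and from 17.1 to 2085 CPM in RIP, and its log2 change was -0.50 (95% interval from -1.5 to 0.49, FDR 0.886). Zfp36, which encodes tristetraprolin, rose from 33.4 to 781 CPM in RNA and from 50.4 to 1172 CPM in RIP, with a change of -0.17 (-0.84 to 0.50, FDR 0.951). Cxcl10, an interferon-induced chemokine, gave 0.31 (-0.49 to 1.11, FDR 0.919). For Zfp36 the interval excludes a loss of 1 log2 unit, while for Ptgs2 it does not. Il6, Il10 and Ifnb1, cytokines with 5 to 28 counts over 4 libraries in DMSO, gave -0.29, -0.51 and -0.01, with 95% intervals from -4.03 to 3.45, from -2.24 to 1.22 and from -3.83 to 3.81. These 3 intervals use the standard error of the fitted coefficients (1.82, 0.84 and 1.86), because the one derived from the F statistic fails for few counts and a change near 0. For all 3 a change of 1 log2 unit in either direction lies inside the interval, so it was not detectable at these counts.

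**Figure D2:**
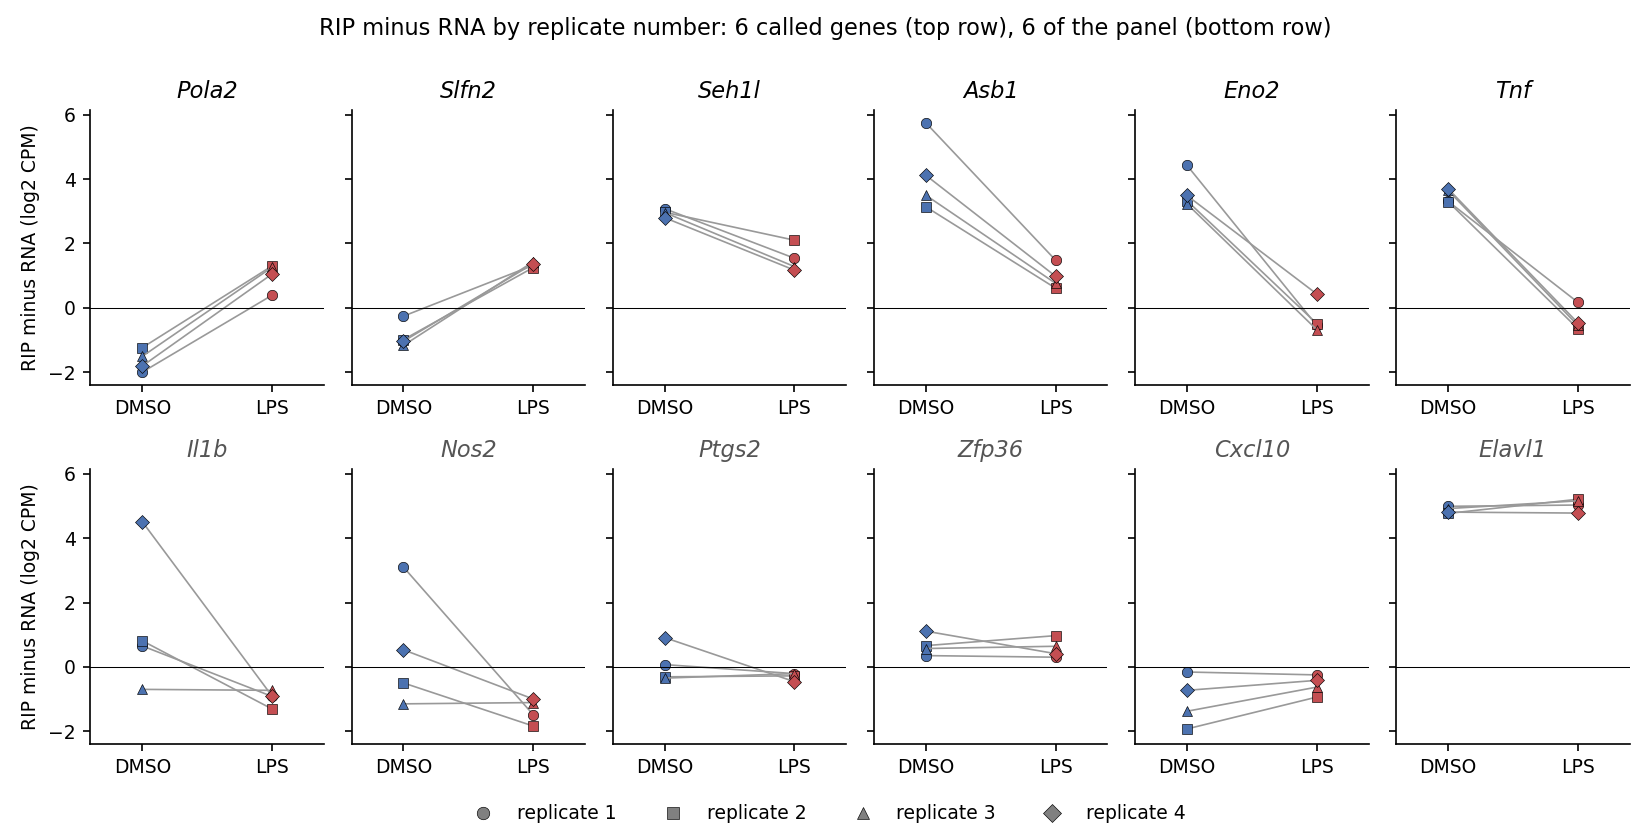
RIP minus RNA in log2 CPM for each replicate number, DMSO in blue and LPS in red, with lines joining the same number. The top row holds the 6 called genes, whose treatments do not overlap, and the bottom row holds 6 panel genes that were not called, among which Il1b and Nos2 vary widely in DMSO.

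Over all genes, the response in RIP followed that in RNA. LPS against DMSO gave 5092 calls in RNA (35.6%) and 6097 in RIP (42.6%). Of 2718 genes higher in RNA, 2248 were also higher in RIP (82.7% of those in RNA, 68.4% of the 3287 in RIP) and 2 were lower. Of 2374 genes lower in RNA, 1842 were also lower in RIP (77.6% of those in RNA, 65.6% of the 2810 in RIP) and 1 was higher. The 3 genes with opposite calls were Asb1 and Txlng, higher in RNA and lower in RIP, and Tufm, a mitochondrial translation factor, lower in RNA and higher in RIP; they are named because of their values. Txlng went from 8.33 to 11.9 CPM in RNA and from 37.8 to 27.2 CPM in RIP, and Tufm from 89 to 62.7 CPM in RNA and from 17.2 to 23.8 CPM in RIP. The log2 fold changes in RNA and RIP had a Pearson r of 0.86 over 14311 genes and of 0.96 over the 8641 with a mean of at least 5 CPM. These are correlations across genes, which are not independent replicates.

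**Figure D3:**
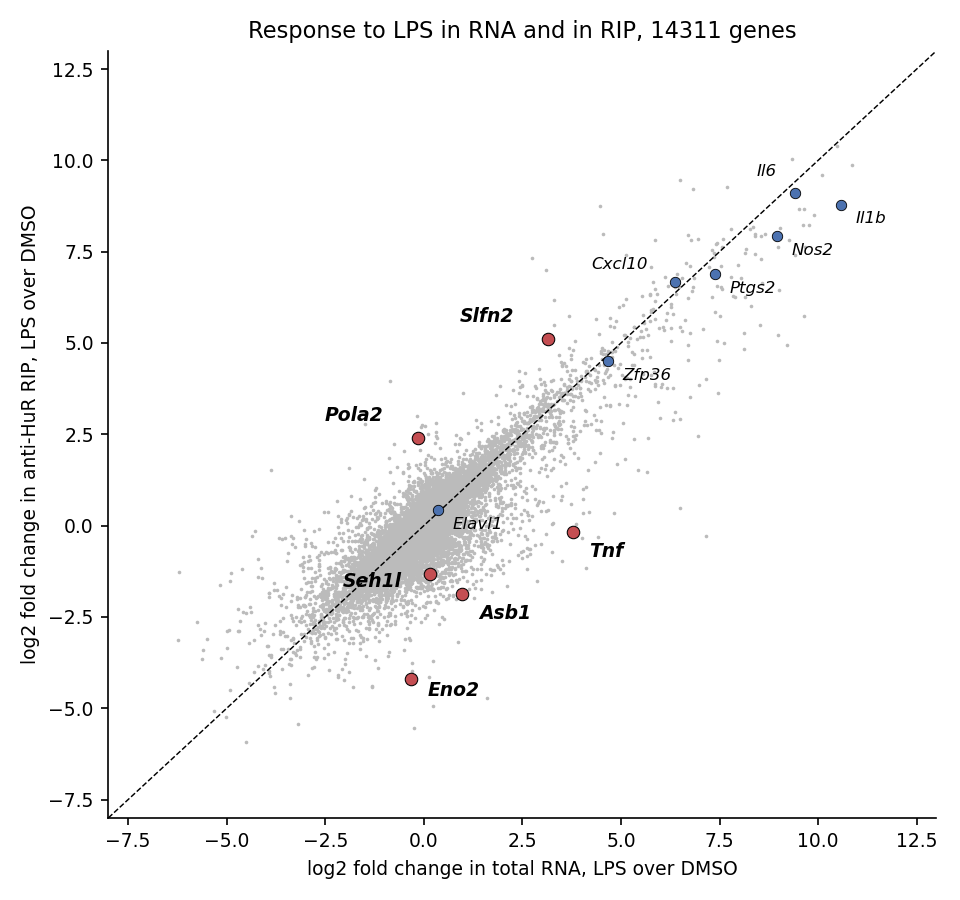
Log2 fold change by LPS in anti-HuR RIP against that in total RNA, 1 grey point per gene tested. The dashed line marks equal change, red points are the 6 called genes and blue points are panel genes; Pola2 and Slfn2 lie above the line and Tnf, Eno2, Asb1 and Seh1l below it.

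Enrichment itself was mostly kept. RIP differed from RNA for 10075 genes in DMSO (70.4%) and for 9109 in LPS (63.7%). Of 5300 genes enriched in DMSO, 4478 were enriched in LPS (84.5% of those in DMSO, 95.1% of the 4708 in LPS), and of 4775 depleted in DMSO, 4009 were depleted in LPS (84% of those in DMSO, 91.1% of the 4401 in LPS). Opposite calls were made for 9 genes, listed for that reason: Pola2, Slfn2, Mrpl32, Snrnp48, Hamp, Zfp786, Il18bp, Rps15a-ps4 and Cfb. Of these, Mrpl32, a mitochondrial ribosomal protein, stood at 16.7 and 24.8 CPM in RNA and at 28.8 and 15.2 CPM in RIP (DMSO and LPS means), a log2 change of -1.56 (SE 0.41, FDR 0.252). Snrnp48, a protein of the minor spliceosome, gave -0.90 (SE 0.22, FDR 0.216). Hamp, Zfp786, Il18bp, Rps15a-ps4 and Cfb had means under 1 CPM in at least 1 group of the 4. RIP minus RNA in DMSO and the change by LPS share the DMSO libraries, which alone can tie the 2 together. Sentences that give both, here and below, describe values, and no relation between them was tested.

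The precision depended on the level of a gene. The median SE of the log2 change was 0.36 over all genes and 0.28 over the 8641 genes with a mean of at least 5 CPM. Among those 8641, the 95% interval lay within 1 log2 unit of 0 for 5999 genes (69.4%) and within 2 units for 97.8%. These intervals use the standard error derived from the F statistic, which fails for few counts and a change near 0. Ifnb1 counts as within 1 unit by it, at -0.58 to 0.55. From the fitted coefficients its interval was -3.83 to 3.81, so the counts may be too high.

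Same-numbered libraries deviated together, both RIP and RNA of a treatment and DMSO and LPS of an assay. Most that differed in both assay and treatment did so too. Fits with the number as a block were therefore run as well. With the block within treatment, which pairs RIP with RNA, 39 genes were called (0.273%), 11 higher and 28 lower. With the block within assay, 148 genes were called (1.03%), 69 higher and 79 lower. All 6 genes above were called in both, and 32 genes were common to the 2 fits, 10 higher and 22 lower. The 7 of the 39 that the block within assay did not call were Dusp1 (FDR 0.122), Il18bp (0.0604), Srsf5 (0.0604), Slc7a11 (0.0561), Ifi206 (0.11), Pgap1 (0.148) and Zfp652 (0.0886). The genes named from the paired fits were chosen after their values were seen, and none below was called in the unpaired fit.

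Of the paired calls that fell, Osm, or oncostatin M, a cytokine of the interleukin 6 family, stood in RNA at 1.7, 1.08, 0.901 and 1.12 CPM in DMSO and at 16.3, 12.5, 25 and 26.6 CPM in LPS. The levels in RIP were 14.1, 9.06, 12.8 and 13 CPM in DMSO and at 76.6, 56.1, 106 and 108 CPM in LPS. Both assays rose without overlap, and RIP minus RNA fell from between 2.98 and 3.72 to between 2.02 and 2.23. The paired log2 change was -1.38 (SE 0.22, FDR 0.0062). Il27, a cytokine subunit, gave -2.07 (SE 0.37, FDR 0.0158), and its 4 differences in LPS were -1.20, -1.20, -1.19 and -1.19, while the DMSO RNA library numbered 1 held 0 counts. Il18bp, which binds interleukin 18, gave -2.21 (SE 0.45, FDR 0.0436), and Ptgir, the prostacyclin receptor, -1.59 (SE 0.24, FDR 0.00421). Dusp1, a phosphatase that turns off p38 and JNK, gave -0.90 (SE 0.16, FDR 0.0158).

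Further paired calls fell. Hook3, a microtubule linker, stood at means of 40.1 and 35.8 CPM in RNA and of 174 and 62.1 CPM in RIP in DMSO and LPS, a paired change of -1.44 (SE 0.21, FDR 0.00255). Cux1, a homeobox transcription factor, fell in RNA from 199 to 101 CPM and in RIP from 1526 to 400 CPM, a paired change of -1.08 (SE 0.19, FDR 0.0158). Ggta1, a galactosyltransferase, rose in RNA from 20.4 to 54.9 CPM and stood in RIP at 120 and 105 CPM, a paired change of -1.67 (SE 0.18, FDR 4.61e-05). The splicing factors Srsf5 and Srek1 gave -0.98 (FDR 0.0436) and -0.90 (FDR 0.0436), and Rbmx, an hnRNP protein, -0.91 (FDR 0.0436). Hook3 and Cux1 overlap other genes on both strands, and Ggta1 also overlaps others.

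Of the 11 paired calls that rose, 2 were enriched by anti-HuR in DMSO already. Ctsc, the lysosomal protease cathepsin C, stood in RNA at 47.5, 39.9, 73.4 and 57.6 CPM in DMSO and at 269, 217, 313 and 334 CPM in LPS. In RIP it stood at 289, 183, 312 and 215 CPM in DMSO and at 4094, 3434, 3774 and 2850 CPM in LPS. Neither assay overlapped between treatments, and RIP minus RNA went from between 1.90 and 2.60 to between 3.09 and 3.98, a paired change of 1.35 (SE 0.27, FDR 0.0436). IgG held 65.9 and 351 CPM of Ctsc, near the RNA means of 54.6 and 283. Slc7a11, the cystine transporter, rose from 14.5 to 89.7 CPM in RNA and from 44.9 to 543 CPM in RIP, a paired change of 0.78 (SE 0.16, FDR 0.0484).

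Others that rose, besides Pola2 and Slfn2, were transcripts that stood below RNA in RIP. Gapdh, the glycolytic dehydrogenase, had RNA means of 716 and 789 CPM and RIP means of 122 and 261 CPM, a paired change of 0.85 (SE 0.17, FDR 0.0436). Lgals3, or galectin 3, gave 0.83 (SE 0.17, FDR 0.0436). Atp5b, a subunit of mitochondrial ATP synthase, gave 0.91 (FDR 0.0494). Cfp, or properdin, Tmem176b and Slc37a2 gave 0.94, 1.05 and 0.87 (FDR 0.0436 for each). In these 6 genes RIP stood below RNA in both treatments and less so in LPS. IgG from DMSO and LPS held 514 and 643 CPM of Gapdh, 293 and 304 of Lgals3, and 612 and 880 of Atp5b. It held 65.7 and 142 CPM of Cfp and 20.7 and 18.2 CPM of Tmem176b. All of these lay above the RIP means of the same treatment. Slc37a2 stood at 39.8 and 8.06 CPM in IgG, against RIP means of 24.9 and 8.81 CPM.

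The paired count depended on 1 library pair. With RNA and RIP from DMSO numbered 1 left out, a fit added after seeing the data, 294 of 14555 genes were called (2.02%), 229 higher (1.57%) and 65 lower (0.447%). The 39 paired calls, the 6 genes above among them, were all called there too.

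Gene lists were read against all genes tested, whose median change was 0.02. That median is set by the scaling: it was -0.21 when libraries were scaled to their totals alone, where 27 genes were called, 25 of them lower, against 4 of 6 in the TMM scaling used here. Directions of lists are therefore given relative to the median of all genes, and none of the medians named below changed its side of that median in any of 5 scalings.

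Glycolytic genes had a median above that of all genes in each replicate number. The list has 20 gene names and 21 entries, since Aldoa has a second, barely expressed entry. It does not hold Eno2, the enolase that was called lower above. Of the 21, edgeR called 0 and DESeq2 called 1 (0.461% of all genes), 8 were higher at an unadjusted p under 0.05 (38.1%, against 3.70% of all genes) and 0 were lower. Their median change was 0.44, and 0.27, 0.55, 0.67 and 0.88 by replicate number. Median RIP minus RNA in DMSO was -1.57, -2.18, -1.82 and -1.77, and in LPS it was -1.21, -1.54, -1.09 and -0.81. The median was nearer 0 in LPS in all 4 numbers. Eno1, the enolase expressed in most tissues, gave 1.07 (SE 0.28, unadjusted p 0.000728, FDR 0.252), from RIP means of 141 and 319 CPM at RNA means of 893 and 869 CPM. Pgk1 and Ldha, the phosphoglycerate kinase and lactate dehydrogenase A, gave 0.68 and 0.67. In the paired fit 1 member was called, Gapdh, and without the DMSO pair numbered 1 there were 5, all higher (1.57% of all genes were called higher in that fit). Of the 21, 8 had 4 differences in LPS above all 4 in DMSO (6.51% of all genes did) and 1 had them below (3.67%, so 10.2% in either direction).

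Ribosomal protein genes, whose mRNAs are short and abundant, had a median change of 0.39 over 79 tested, with 0 called by edgeR or DESeq2, 13 higher at an unadjusted p under 0.05 (16.5%) and 0 lower. The medians by number were 0.12, 0.42, 0.28 and 0.79, and without RNA from DMSO numbered 1 the list's median was 0.60, against 0.08 for all genes. Genes of DNA replication gave a median of 0.32 over 41, with Pola2 called, 7 higher at that p (17.1%, against 3.70% of all genes) and 0 lower (3.58% of all genes). Besides Pola2 these were Mcm7, Cdt1, Rfc4, Lig1, Rpa1 and Rpa2, at 0.55 to 0.72, and none of these 6 was called. Mcm7, a subunit of the replicative helicase, fell from 102 to 35.1 CPM in RNA and from 30.5 to 18.5 CPM in RIP, while Pola2 in RIP rose from 13.8 to 74.9 CPM.

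Replication-dependent histone genes, whose mRNAs end in a stem-loop in place of a poly(A) tail, had the highest list median, 0.69 over 55 tested. EdgeR called 0 of them and DESeq2 2 (0.461% of all genes), and 11 were higher at an unadjusted p under 0.05 (20%) and 0 lower. Without RNA from DMSO numbered 1, 26 were higher at that p, where 5.66% of all genes were. The medians by number were -0.35, 0.86, 0.94 and 0.99. The pair numbered 1 stood apart in DMSO, where median RIP minus RNA was -0.66 against -2.45, -2.14 and -2.18 in the others. In the paired fit 0 histone genes were called, and without the DMSO pair numbered 1 there were 20, all higher, where 1.57% of all genes were called higher and 0.447% lower. Among them H2bc4 gave 1.05 (SE 0.25, FDR 0.182) in the unpaired fit, from RNA means of 138 and 31.2 CPM and RIP means of 31.9 and 15.8 CPM. Macrophage receptors and lineage factors gave a median of 0.25 over 37, with 4 higher (10.8%, against 3.70% of all genes) and 1 lower (2.7%, against 3.58%) at that p, 8 higher and 1 lower without RNA from DMSO numbered 1, and 8 called, all higher, in the paired fit without the DMSO pair numbered 1, against the same 1.57% of all genes. They were Lyz2, Csf1r, Itgb2, Mpeg1, Irf8, Cx3cr1, Spi1 and Cd68.

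Cytokines and chemokines had medians below that of all genes. Of 23 cytokines, Tnf was called, 1 was higher at an unadjusted p under 0.05 (4.35%) and 5 were lower (21.7%, against 3.58% of all genes), namely Tnf, Il27, Osm, Il1b and Csf3. The median change was -0.29, but by number it was 0.03, -0.04, 0.06 and -0.80, so that only number 4 was far below 0. By number the median of all genes was -0.09, 0.15, 0.14 and 0.11, so in number 1 the cytokines stood above it. The one that was higher was Lif, the leukaemia inhibitory factor, at means of 1.64 and 134 CPM in RNA and 2.76 and 2013 CPM in RIP. Its log2 change was 2.96 (SE 1.16, FDR 0.597), and it varied from 0.57 to 5.05 between numbers. Of 18 chemokines, edgeR and DESeq2 called 0, and 0 were higher and 3 lower at that p: Ccl5 at -1.44 (FDR 0.512), Cxcl11 at -1.25 (FDR 0.631) and Cxcl2 at -1.06 (FDR 0.643). By number Ccl5 varied from -2.48 to -0.43, Cxcl11 from -2.92 to 0.47 and Cxcl2 from -2.14 to 0.10. The DMSO libraries held only 32 counts of Cxcl11 in RNA and 46 in RIP. The median of the 18 was -0.48, and -0.68, -0.12, 0.09 and -0.34 by number, and it was -0.25 without RNA from DMSO numbered 1.

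Lists drawn from HuR biology had medians near that of all genes. A list of 45 known AU-rich or HuR-bound mRNAs, which holds Tnf, had a median change of -0.03, with 0 higher and 3 lower (6.67%) at an unadjusted p under 0.05, where 3.70% of all genes were higher and 3.58% lower. The 31 genes of AU-rich element binding and RNA decay gave -0.10, with 0 higher and 2 lower (6.45%). The 49 interferon-stimulated genes gave -0.07, with Slfn2 called, 1 higher (2.04%) and 3 lower (6.12%) at that p. Long noncoding RNA genes had a lower median: 1121 of them gave -0.34, with 13 higher and 83 lower (7.4%), at -0.63, -0.41, -0.40 and -0.45 by number. Processed pseudogenes, also noncoding, gave 0.26 over 831, and -0.38, 0.21, 0.12 and 0.14 by number. The 285 Zfp-named zinc finger genes gave -0.12, close to the -0.10 above, with 0 higher and 17 lower (5.96%). EdgeR called 0 of the long noncoding RNA genes and 0 of the Zfp-named genes. DESeq2 called 1 of the former and 2 of the latter, near or below its share of 0.461% of all genes. Without RNA from DMSO numbered 1, the median was -0.04 for the Zfp-named genes, -0.02 for AU-rich element binding and decay and -0.18 for interferon-stimulated genes, against 0.08 for all genes. In that fit the known AU-rich or HuR-bound mRNAs had 3 higher and 2 lower at the same p. AU-rich element binding and decay had 0 and 1, interferon-stimulated genes 1 and 2, and Zfp-named genes 1 and 14. Of all genes, 5.66% were higher there and 3.09% lower.

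**Figure D4:**
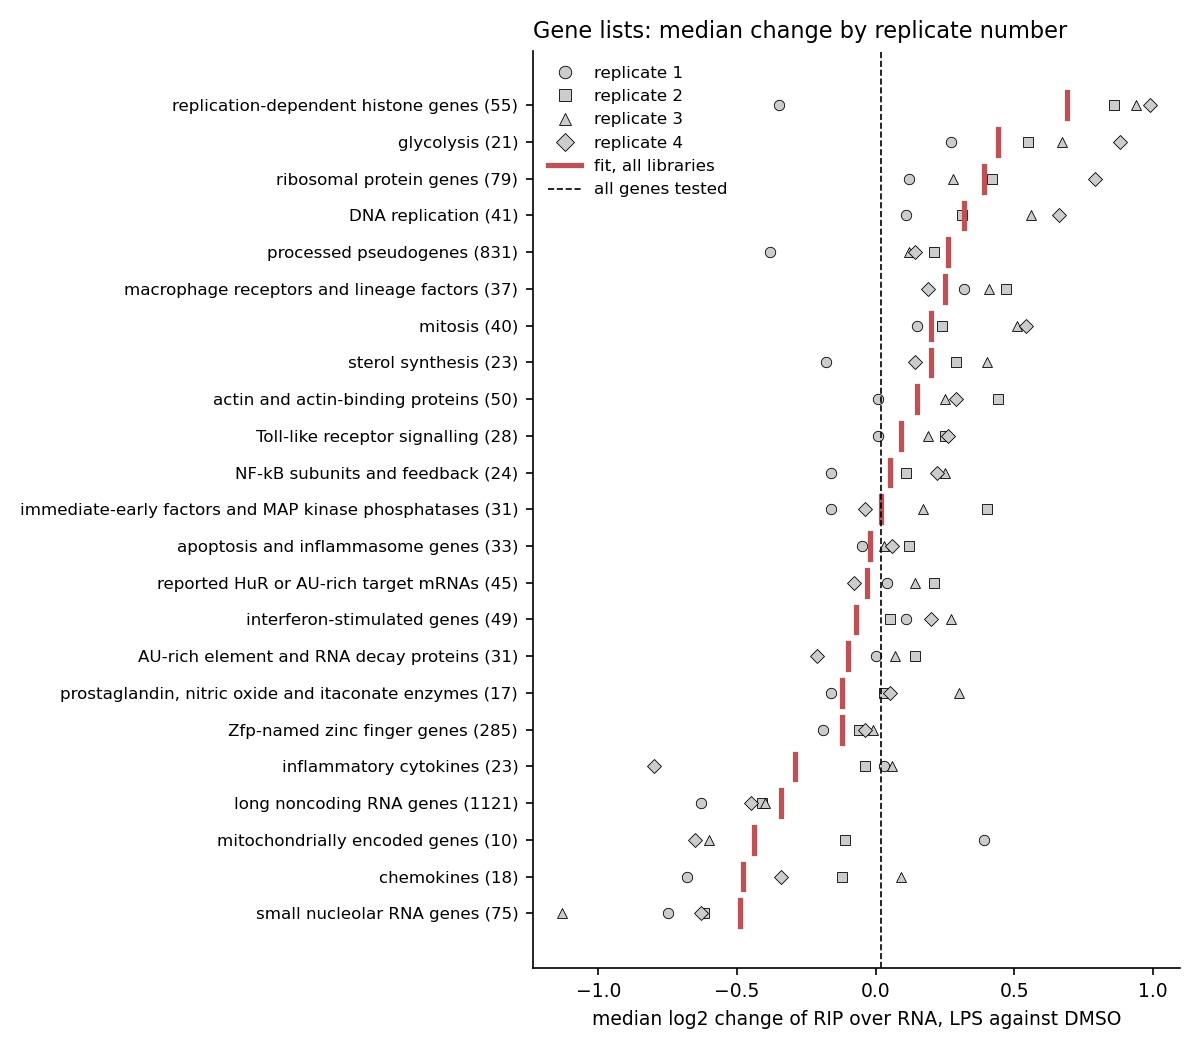
Median log2 change of RIP over RNA for each gene list of at least 10 genes tested (number tested in brackets). Grey symbols are the medians of single replicate numbers, red bars the fit over all libraries and the dashed line all genes tested. Glycolysis lies to the right of the line in all 4 numbers, and the histone list does so in all but number 1.

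The 3′ UTR was compared next, because RIP minus RNA rose with AU-rich pentamers in both treatments. Genes with 0 ATTTA matches had a median RIP minus RNA of -0.78 in DMSO and -0.67 in LPS. Those with at least 11 had 1.31 and 0.96, so the step from the lowest to the highest class was smaller in LPS. The median change went from 0.17 for 0 matches (2911 genes) through 0.08 for 1 to 2 (3357), -0.01 for 3 to 5 (2382) and -0.06 for 6 to 10 (1554) to -0.16 for at least 11 (692). At an unadjusted p under 0.05, the share of genes that were lower went from 2.44% to 7.37%, and the share that were higher from 7.45% to 1.16%. Without RNA from DMSO numbered 1 the share that were higher went from 11.5% to 1.73%. With library totals as the scaling all 5 medians were below 0, from -0.06 to -0.39, around a median of all genes of -0.21. The order of the 5 medians held without RNA from DMSO numbered 1, where they went from 0.23 to -0.07. By number the lowest and highest class stood at -0.03 and -0.09, 0.25 and 0.07, 0.33 and -0.05, and 0.46 and -0.22. Longer 3′ UTRs hold more matches, and the part of length was not tested. The share of T in the 3′ UTR gave less of a step, with medians from 0.16 in the 2723 genes poorest in T to -0.02 in the 2724 richest.

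Among the 28 paired calls that fell, 32.1% had at least 1 TTATTTATT and 89.3% an ATTTA. Of the 11 that rose, 0% had the former and 45.5% the latter. Over all 10896 coding genes the shares were 9.21% and 73.3%. With the longest annotated 3′ UTR of each gene the shares with TTATTTATT were 35.7% and 0%, against 12.1% of all. Besides Tnf, Eno2 and Asb1, the paired calls with the motif were Tmcc2 (3 matches), Il27 and Dusp1 (2 each), and Casz1, Pgap1 and Zfp652 (1 each). These are matches of letters, not measured binding sites.

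The range of enrichment over genes is given as a description, without a p, because it was compared after its values were seen. The interquartile range of RIP minus RNA over the 8641 genes was 2.24, 2.29, 2.36 and 2.41 log2 units in DMSO and 1.95, 2.20, 1.92 and 1.61 in LPS. The means were 2.32 ± 0.0759 and 1.92 ± 0.241 (SD, n = 4 each). The 2 treatments did not overlap over these genes, but they did over the 5381 genes of at least 20 CPM, where the lowest value in DMSO was 2.62 and the highest in LPS 2.68. The difference of the means was -0.40 and -0.405. Over the 8641 genes it was -0.288, -0.0825, -0.439 and -0.791 by number, so that number 2 hardly differed. The scaling factors moved with the treatment, at 0.938 to 0.988 in RIP from DMSO and 0.554 to 0.66 in RIP from LPS, and so did the share of Actb given above. Their part in the difference was not tested.

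**Figure D5:**
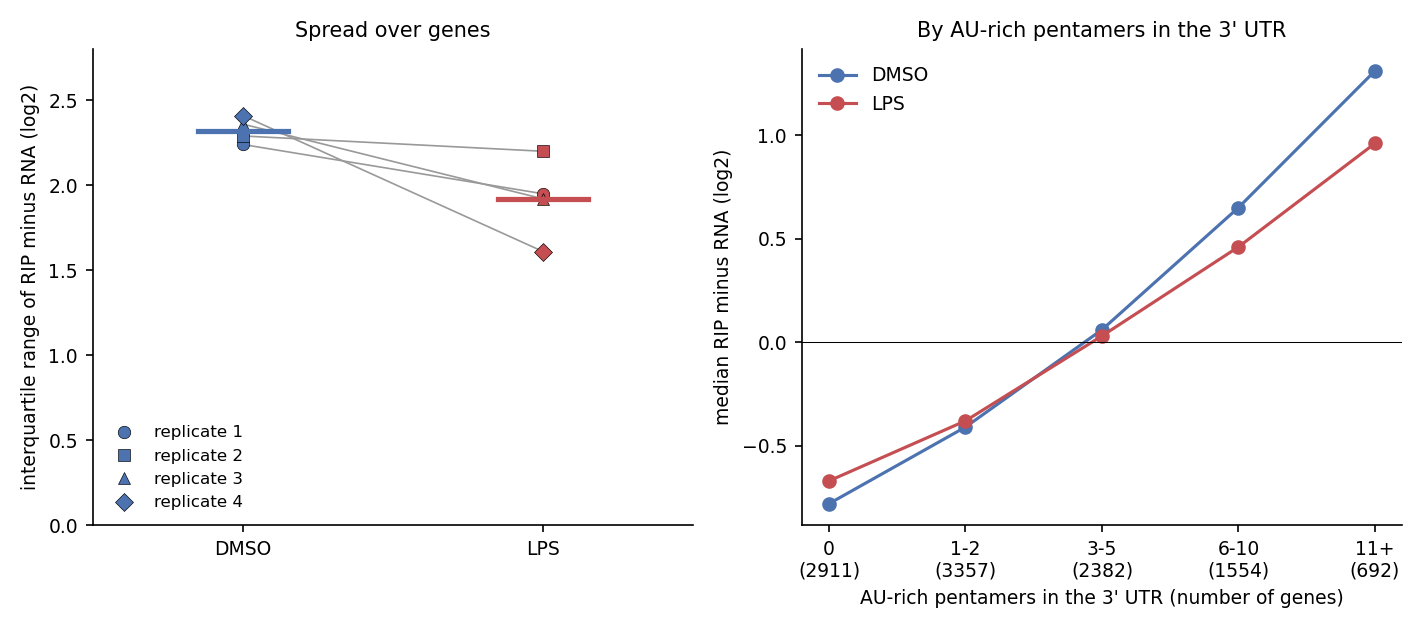
Left, interquartile range of RIP minus RNA over 8641 genes for each replicate number, with bars at the means, DMSO in blue and LPS in red; all 4 values in LPS are below those in DMSO. Right, median RIP minus RNA by the number of AU-rich pentamers in the 3′ UTR, which rises in both treatments and reaches 1.31 in DMSO and 0.96 in LPS.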

How the data were processed

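The authors deposited 1 table of raw read counts, whole numbers per gene and library, for 55483 mouse genes. Per the submitters' processing notes, FastQC 0.11.9, STAR, HTSeq, DESeq2 and the build GRCm39 were used; no source used here gives the annotation release or strand setting. Libraries came from the SMART-Seq Stranded kit, per the labels, with no stated molecular identifiers, so PCR copies count separately.

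Counts of 24 RNA and RIP libraries in 6 groups, the 16 compared and 8 with TM7nox, were fitted together with edgeR 4.0.16 in R 4.3.3: filterByExpr with a minimum count of 10, TMM scaling, quasi-likelihood F tests (two-sided) and Benjamini-Hochberg adjustment. CPM values are on 1 TMM scale over 27 libraries, and log2 CPM has a prior count of 2. Alternatives were DESeq2 1.42.0, other scalings and filters, replicate blocks and left-out libraries. Standard errors were derived from the F statistic, and for 3 low-count genes from the information matrix of the fit. Medians and counts of intervals over many genes use only the former. The fit was also run on simulated counts, with the same spread for all genes and no effect of the replicate number. Only genes with many counts were scored there, so the simulation does not cover the low-count genes or the shared numbers of these data.

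Deviations of same-numbered libraries from their group means correlated at 0.21 to 0.40 within a treatment and at 0.14 to 0.49 within an assay, over 0.1 in 8 of 8 pairs each, so the numbers were taken to pair the libraries. Between libraries that differed in both assay and treatment the correlations were 0.06 to 0.36, over 0.1 in 6 of 8 pairs. The correlations therefore do not show that RIP and RNA of a treatment share a sample. The chi-square per gene of replicate pairs lay between 38.1 and 214, so no pair agreed within sampling noise.

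Genes were named as members of a panel of 10, as called genes with the largest changes (12 per direction, coding, no predicted symbol, at least 1 CPM in each group and 5 CPM over the 16 libraries, no overlap of differences) or the highest RIP level (6 per direction), or as called members of 24 lists (up to 4 each); other names are marked as chosen after their values were seen, and the examples in lists were chosen in the same way. The members and lists were chosen with earlier results of these data known. Coordinates and 3′ UTRs (at least 50 bases) are from GENCODE M39 on GRCm39. Some genes that were tested are not reported here by name.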

Additional observations from a re-analysis of the deposited data

Results flagged for a closer look

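The change of RIP over RNA between DMSO and LPS passed the test for 6 genes, which is a difference of the assay effect between the 2 treatments by an interaction term: 2.55 for Pola2, 1.97 for Slfn2, -3.95 for Tnf, -2.84 for Asb1, -1.49 for Seh1l and -3.88 for Eno2 (log2). In 60 groups of 4 libraries, 15 genes by 4 groups, 2 had a library far from the other 3 by Dixon's criterion, and chance gives about 1 in 20. Cxcl10 stood at 7.01 CPM in RIP from DMSO numbered 1, where the others lay between 2.03 and 2.78 CPM. Ptgs2 stood at 1844 CPM in RNA from LPS numbered 1, where the others lay between 2721 and 2864 CPM.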

How the results depend on the processing

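Pola2 and Tnf were called in 29 of 30 alternatives, Eno2 and Asb1 in 28, Slfn2 in 21 and Seh1l in 11, and the 6 kept their directions in all 30. The number of genes called, 6 (2 higher, 4 lower), became 27 with library totals only (25 lower), 5 with RLE factors, 8 with upper quartile factors, 15 with TMM over nuclear coding genes (13 lower), 49 with no filter (27 and 22), 14 with a minimum count of 50 (12 lower), 66 with DESeq2 (34 and 32), 0 with replicates 1 and 2 only (0 and 0; 299 at an unadjusted p under 0.05), 13 with replicates 3 and 4 only (4 and 9), and 4 with 16 libraries only (1 and 3). With the replicate block it was 50 (17 and 33), with the replicate block within assay 148 (69 and 79), with the replicate block within treatment 39 (11 and 28), and 294 (229 and 65) with the last and without DMSO replicate 1, added later. Leaving out single libraries gave 4 to 11 calls, 1 to 8 higher and 2 to 6 lower. The blocks changed no call among the 6. Uncalled panel values changed sign: Elavl1 to -0.15 with library totals, Il6 to 0.01 and Il10 to 0.24 with the replicate block within treatment, Il10 to 0.53 and Ifnb1 to 0.00 with that block and without DMSO replicate 1, Il10 to 0.08 with replicates 3 and 4 only, Ifnb1 to 0.11 with no filter, 0.08 with 16 libraries and 1.08 with replicates 1 and 2, and Zfp36 to 0.01 with no filter. With single libraries left out, Cxcl10 ranged from -0.02 to 0.86, Elavl1 from -0.06 to 0.30, Ifnb1 from -0.57 to 0.52, Il10 from -0.82 to 0.83, Il6 from -2.40 to 0.34, Zfp36 from -0.41 to 0.06, Il1b from -3.28 to -1.31, Ptgs2 from -0.79 to -0.02 and Nos2 from -1.28 to -0.70. Il1b was called with no filter (FDR 0.0023). The cause of these shifts was not tested. The difference in range of -0.40, given without a p, was -0.405 with genes of at least 20 CPM, -0.494 to -0.297 with 1 library pair left out and -0.40 paired by number as a replicate block. Il6 and Ifnb1 had 5 to 13 counts over 4 libraries in DMSO, which limits their precision.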
